A study of Mus musculus with 8 samples.

Results

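A group of 6 genes of the antibody-producing B cell lineage was followed through infarct healing in the mouse left ventricle. They are 4 genes for parts of secreted antibodies, Jchain, Ighm, Igkv8-30 and Iglv1, and 2 genes of the B cell receptor and its signalling, Cd79a and Blk. The genes were chosen by their signals in these 8 arrays, which had been seen across strains and time points when the list was drawn up, so their levels and differences are given as a description, with no test. Of 12393 genes with a probe set of their own, these are 6; of 22626 probe sets, 17 carry one of their symbols alone: 11 for Ighm, 2 for Iglv1 and 1 for each of the others. RNA came from left ventricles of male C57BL/6 mice, a common inbred strain, and male MRL/MpJ mice, whose ear punches are known to heal unusually well, all aged 2 to 4 months. In each strain there was 1 array from untreated hearts and 1 array each from hearts 3, 30 and 60 days after the left anterior descending (LAD) coronary artery was tied, which infarcts the wall it supplies. Untreated hearts, with no sham operation, served for comparison, and the labels do not say how many animals an array holds, so no group has a replicate of its own.

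B cells carry antibody in their membrane as a receptor, which signals through CD79A and its partner CD79B and through Src-family kinases such as BLK. A B cell that matures into a plasma cell turns down much of this surface machinery and makes antibody for export instead. A secreted antibody has heavy chains, which set its class (mu for IgM, alpha for IgA, gamma for IgG), and kappa or lambda light chains. The J chain, encoded by Jchain, is built into polymeric IgM and IgA before they leave the cell. Heavy and light chains serve the membrane receptor too, and the probe sets here were not sorted into secreted and membrane forms. The healthy ventricle holds few lymphocytes, and B cells are known to enter it after infarction.

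Promoter sequences were at hand in the RefSeq table (GRCm38.p6) for 2 of the 6 genes, 1 from each side of the comparison, and both are shown because the antibody gene Jchain and the receptor gene Cd79a had different courses. Capitals mark 2 motifs, searched on both strands: CAGGTG, an E-box bound by the B cell factor E2A, and AGGAAGT, a core bound by Ets factors. The first lies at chr5:88527848-88528147 on the minus strand and the second at chr7:24897247-24897546 on the plus strand, each written 5′ to 3′ in the direction of the gene.
Jchain: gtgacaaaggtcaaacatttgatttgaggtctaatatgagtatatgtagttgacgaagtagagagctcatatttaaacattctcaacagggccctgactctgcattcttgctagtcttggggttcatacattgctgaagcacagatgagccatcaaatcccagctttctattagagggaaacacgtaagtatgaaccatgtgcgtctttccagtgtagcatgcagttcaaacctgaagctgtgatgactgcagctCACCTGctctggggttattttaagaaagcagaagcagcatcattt
Cd79a: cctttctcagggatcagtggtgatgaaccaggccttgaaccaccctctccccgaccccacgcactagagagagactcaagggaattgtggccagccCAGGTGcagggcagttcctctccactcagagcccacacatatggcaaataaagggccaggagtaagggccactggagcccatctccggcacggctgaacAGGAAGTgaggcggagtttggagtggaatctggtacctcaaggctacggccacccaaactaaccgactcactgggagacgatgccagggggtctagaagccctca
Each promoter held 1 E-box, on the antisense strand in Jchain (shown as CACCTG) and on the sense strand in Cd79a, and 20.2% of the 32851 promoters of the same length in the table held one. The Ets core was found in Cd79a only, and in 9.35% of all promoters. The octamer ATGCAAAT, known from immunoglobulin promoters, was in neither sequence and in 1.74% of all promoters. These matches describe the letters of these windows and say nothing of binding.

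The arrays had median signals of 112.8 to 139.5. The C57BL/6 day 30 array stood apart: its correlations with the other arrays over 8195 genes were 0.844 to 0.877, against 0.884 to 0.948 among the other arrays, and it gave the highest of the 8 signals in 27.3% of these genes. All 12 ventricular muscle markers were bright in every array, with summed signals of 191430 to 340482. Of 14 T cell genes measured, 7 lay below 121, the median of all values, in every array, and Cd3d, Cd4 and Cd2 lay below 28.6 throughout. Others were brighter: Zap70 (476.9 to 1032.3) and Thy1 (181.7 to 362.3) lay above 121 in every array.

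Jchain, for the J chain of IgM and IgA, had signals of 48.0 in untreated, 149.7 in day 3, 133.6 in day 30 and 628.6 in day 60 C57BL/6. In MRL/MpJ its signals were 41.5, 100.1, 49.6 and 569.3 in the same order. Both day 60 arrays lay above the other 6, and the order then ran C57BL/6 day 3, C57BL/6 day 30, MRL/MpJ day 3, MRL/MpJ day 30 and the untreated pair. Folds here are ratios after an offset of 28.6 was added to both signals: day 60 stood 8.58-fold above untreated in C57BL/6 and 8.53-fold in MRL/MpJ. The gap between the lower day 60 array and the next array was 1.75 on the log2 scale. The residual SD of the additive fit given below was 0.29, which includes any difference between the strains in their time courses. The 2 day 60 arrays, and the arrays from C57BL/6 on days 3 and 30, were each closer than that SD. In this bulk RNA, more cells that express a gene and more RNA per cell cannot be told apart.

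Ighm, the heavy chain gene of IgM, is represented by its brightest probe set, 1427351_s_at. It read 177.7, 483.7, 1021.2 and 4997.4 in C57BL/6 from untreated to day 60. In MRL/MpJ it read 190.7, 325.8, 273.7 and 996.4. The untreated arrays were close to each other, and C57BL/6 day 60 was 24.4-fold above its untreated array, MRL/MpJ day 60 4.67-fold. The day 60 arrays did not both lie above the other 6, since C57BL/6 day 30 was level with MRL/MpJ day 60 (a log2 gap of 0.03 against a residual SD of 0.53).

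The light chain genes followed a like course. Igkv8-30, a kappa variable segment read by 1 probe set, had signals of 33.0, 144.5, 290.0 and 720.4 in C57BL/6. In MRL/MpJ it had 42.2, 75.0, 140.1 and 626.0, so that its signal was higher at each later time in both strains. Day 60 stood 12.2-fold above untreated in C57BL/6 and 9.25-fold in MRL/MpJ, and both day 60 arrays lay above the other 6.
Iglv1, a lambda variable segment, had 5.1, 46.1, 75.0 and 355.9 in C57BL/6 on its brighter probe set, 1430523_s_at, and 15.8, 27.9, 26.1 and 142.0 in MRL/MpJ. Only the 2 day 60 arrays reached 121, so Iglv1 passed the filter on dim genes through the arrays in which it was high. Its other probe set, 1427292_at, stayed between 1.7 and 59.9 and was lowest on day 60. Probe sets whose names end in _x_at or _s_at, as these do for Igkv8-30, Iglv1 and Ighm, can bind transcripts of related genes, so a signal belongs to a family of like segments rather than to 1 segment.

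**Figure D1:**
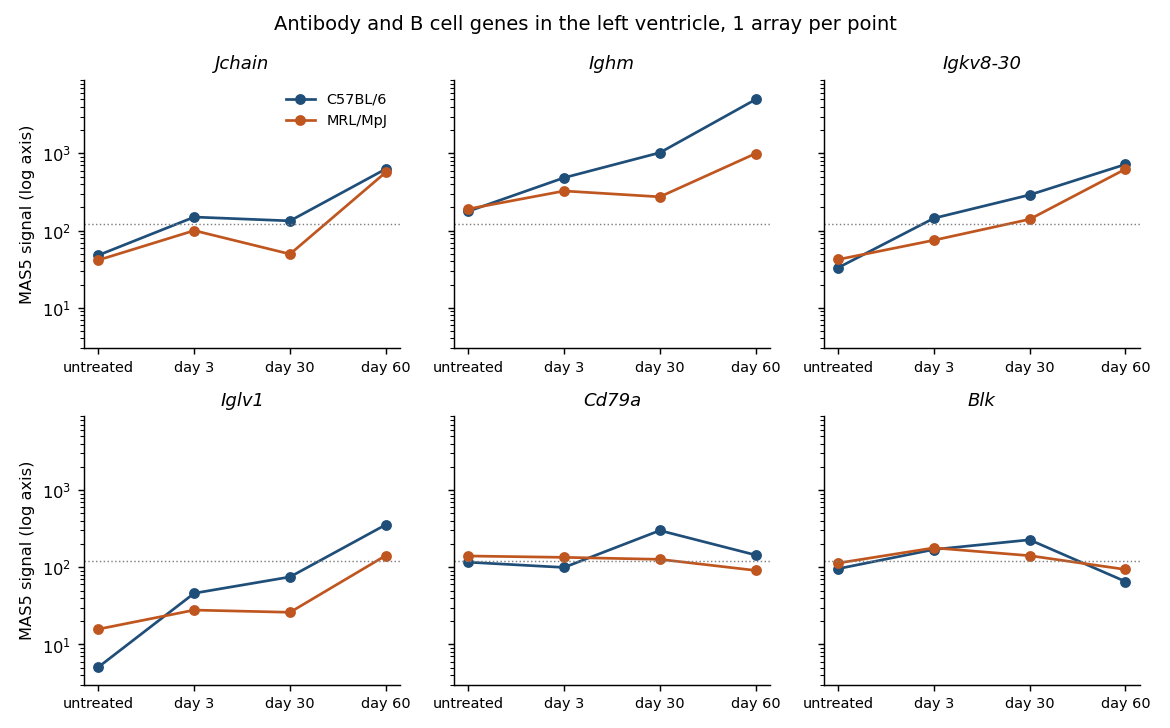
MAS5 signal (log axis) of the 6 genes on their brightest probe sets, by time point (evenly spaced) in C57BL/6 (blue) and MRL/MpJ (orange); each point is 1 array and the dotted line is 121, the median of all values. Jchain, Igkv8-30 and Iglv1 have their 2 highest points on day 60, while Cd79a and Blk have their highest point in C57BL/6 day 30.

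Cd79a, which encodes the signalling partner of surface antibody, had another course. Its signals were 116.3, 99.5, 299.6 and 144.2 in C57BL/6, and 140.0, 134.4, 126.7 and 91.0 in MRL/MpJ. Apart from the high C57BL/6 day 30 array, 7 arrays lay between 91.0 and 144.2 with no gap over 0.18 on the log2 scale, and MRL/MpJ day 60 was the lowest of all.
Blk, a Src-family kinase of B cells, had 95.7, 169.9, 226.9 and 65.4 in C57BL/6 and 113.3, 178.4, 141.3 and 93.7 in MRL/MpJ. Its 2 day 60 arrays were the 2 lowest. Both genes were highest in C57BL/6 day 30, the array that stood apart and that was highest in 27.3% of all genes kept. The part of that array's departure in these 2 values was not tested.

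The fitted differences put the 2 kinds of gene side by side (limma's additive model with strain and time point, 8 arrays, log2 scale with the offset; SE from 3 residual degrees of freedom plus limma's prior). For day 60 against untreated, 2 arrays against 2, the difference was 3.10 for Jchain (SE 0.29), 3.42 for Ighm (SE 0.53), 3.41 for Igkv8-30 (SE 0.32) and 2.73 for Iglv1 (SE 0.38). It was -0.12 for Cd79a (SE 0.37) and -0.31 for Blk (SE 0.29). The median of the 4 antibody genes was 3.25, beside -0.06 over all 8195 genes. Of the 6 genes, 2 were among those past an adjusted p of 0.05 in limma, Jchain and Igkv8-30; that share is 0.0366% over all genes (3 of 8195), and since the genes were chosen with these values known, nothing is read from the count. Neither was past it without either untreated array, without either day 60 array, or with no filter on dim genes. All 4 antibody genes stood 2-fold or more above untreated on day 60 in both strains, as did 1.84% of all genes (3.64% in C57BL/6 and 4.56% in MRL/MpJ taken alone). For 3 of them both day 60 arrays lay above the other 6, as for 4.1% of all genes. Iglv1, 1 of these 3, was kept only through its 2 day 60 arrays, so its place there was fixed in advance. Nothing is read from these counts either, since the genes were chosen with these values known.

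Earlier differences were smaller. On day 3 the antibody genes stood at log2 0.75 to 1.05 above untreated, with SEs of 0.29 to 0.53, and on day 30 at 0.62 to 1.81. With any 1 array left out, the day 3 difference ranged from 0.84 to 1.26 for Jchain, 0.61 to 1.43 for Igkv8-30, 0.19 to 1.82 for Ighm and 0.13 to 1.36 for Iglv1, the last 2 being lowest without the untreated C57BL/6 array. C57BL/6 carried more of this: its 4 antibody genes averaged 1.29 on day 3, 1.86 on day 30 and 3.71 on day 60 above its own untreated array, MRL/MpJ's 0.62, 0.54 and 2.62. Cd79a and Blk together averaged 0.25, 1.11 and -0.07 in C57BL/6 and 0.25, 0.07 and -0.35 in MRL/MpJ. The antibody genes thus exceeded the B cell genes by 3.78 in C57BL/6 and 2.97 in MRL/MpJ on day 60. The excess was 0.75 and 0.47 on day 30, and 1.04 and 0.37 on day 3. The B cell side rests on 2 probe sets with signals near 121, the median of all values. Cd79a was at or above 121 in 5 of 8 arrays and Blk in 4. The part of background in these 2 signals was not tested. Counted at 2-fold, all 4 antibody genes stood above untreated in C57BL/6 on day 3 (2.43% of all genes) and none in MRL/MpJ (4.98%). On day 30 all 6 genes did in C57BL/6 (7.91%), and Igkv8-30 alone in MRL/MpJ (3.09%). Limma called 0.0% of genes on day 3 and 0.0122% on day 30 (0 and 1 of 8195), none of them one of these 6; at an unadjusted p under 0.05 there were 535 and 902 genes. For day 30, leaving out the C57BL/6 array that stood apart moved Jchain from 0.62 to 0.22, Cd79a from 0.53 to -0.02 and Blk from 0.65 to 0.25, while Igkv8-30 went from 1.81 to 1.48. With any 1 array left out, the day 30 difference ranged from 0.59 to 2.22 for Ighm and from 0.35 to 1.58 for Iglv1, the extremes being without the untreated C57BL/6 and the untreated MRL/MpJ array.

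**Figure D2:**
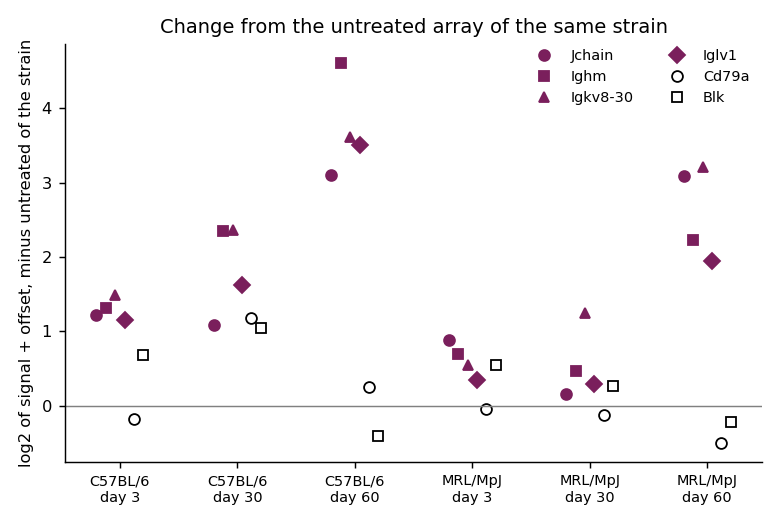
Difference in log2 of signal plus offset between each ligated array and the untreated array of its strain, for the 4 antibody genes (filled) and for Cd79a and Blk (open); each point is 1 array against 1. On day 60 the antibody genes lie between 1.94 and 4.61 and the B cell genes between -0.50 and 0.25.

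The late arrays were also set against day 3, taking days 30 and 60 together (4 arrays against 2). Ighm stood at log2 1.41 (SE 0.46), Igkv8-30 at 1.59 (SE 0.27), Iglv1 at 1.10 (SE 0.33) and Jchain at 0.81 (SE 0.25), against 0.32 (SE 0.32) for Cd79a and -0.44 (SE 0.25) for Blk. The median over all genes was -0.05, and limma called 0.0% of them, with 454 genes at an unadjusted p under 0.05. This comparison shares its arrays with those above.

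A set of 3 further probe sets joins several kappa chain symbols, Igkv8-30 and the kappa constant region among them, and cannot be assigned to 1 gene. The first, 1427455_x_at, read 153.9, 900.2, 1125.4 and 3663.8 in C57BL/6 and 142.1, 287.8, 344.7 and 2833.3 in MRL/MpJ. The second, 1427660_x_at, read 168.5, 603.4, 701.6 and 2818.2, and 187.8, 424.7, 276.5 and 2068.4. The third, 1452417_x_at, read 46.4, 268.2, 222.2 and 1571.6, and 42.6, 87.2, 94.1 and 1301.2. All 3 were highest in the 2 day 60 arrays, at 14.4-fold to 21.3-fold above untreated in C57BL/6 and 9.69-fold to 18.7-fold in MRL/MpJ. They belong to 13 several-symbol immunoglobulin probe sets, 6 of which lay below 121 in every array. The rest differed: 1427851_x_at, 1427576_at and 1427577_x_at were highest in C57BL/6 day 30, at 123.5, 135.1 and 148.0. The probe set 1451965_at was highest in C57BL/6 day 60 (150.8) and lowest in MRL/MpJ day 60 (86.4).

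The 11 probe sets annotated to Ighm did not tell 1 story. Of the 8 that reached 121 in at least 1 array, 2 were highest in C57BL/6 day 60, 4 in MRL/MpJ day 60 and 2 in C57BL/6 day 30. The first pair was 1427351_s_at, given above, and 1427329_a_at, which read 135.7, 311.3, 256.3 and 1700.9 in C57BL/6 and 61.8, 107.5, 151.0 and 290.9 in MRL/MpJ. The pair correlated with each other at r = 0.94 over the 8 arrays, and on day 60 C57BL/6 stood 4.90-fold and 5.41-fold above MRL/MpJ.
The 4 that were highest in MRL/MpJ day 60 ran the other way there. The brightest, 1427870_x_at, had 402.5 in C57BL/6 and 923.1 in MRL/MpJ on day 60, from 279.3 and 300.4 untreated. The next, 1425247_a_at, had 144.0 and 614.3, from 66.0 and 84.9. The dimmer 1425324_x_at had 65.1 and 349.2 on day 60, and 1427756_x_at had 34.1 and 316.0. On day 60 these 4 stood 2.21-fold to 5.50-fold higher in MRL/MpJ. Over the 8 arrays their r was 0.7 to 0.93 with Igha, described below, and 0.3 to 0.5 with the Ighm probe set that represents the gene. Those with names in _x_at can bind transcripts of related genes, so their signals need not be of Ighm alone. Which transcripts they bind was not tested. The pair highest in C57BL/6 day 30 was 1452535_at, at 241.8, and 1425385_a_at, at 143.6. The 3 probe sets that never reached 121 had at most 61.3.

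Igha, the heavy chain gene of IgA, was also highest in MRL/MpJ day 60, and was read by 3 probe sets. The first, 1421653_a_at, had 20.3, 29.3, 45.1 and 24.5 in C57BL/6 and 12.2, 20.5, 105.4 and 534.6 in MRL/MpJ. The second, 1425763_x_at, had 19.5, 42.3, 21.8 and 37.5, and 16.6, 44.8, 114.6 and 478.9. The third and main one, 1429381_x_at, had 70.2, 108.4, 172.2 and 116.6, and 81.6, 150.5, 177.3 and 413.2.
On all 3 the MRL/MpJ day 60 array was the highest, at 3.04-fold to 10.6-fold above C57BL/6 day 60, whose signals stayed within 1.09-fold to 1.47-fold of untreated. On day 60 the first pair of Ighm probe sets and the Igha probe sets thus ran in opposite directions between the strains, each strain being 1 array. Jchain, Igkv8-30 and the 3 several-symbol kappa probe sets that include the constant region each differed by at most 1.36-fold between the strains there. In limma Igha did not pass in any comparison. The 4 probe sets of Ighg3, a gamma chain gene, stayed at or below 70.5.

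**Figure D3:**
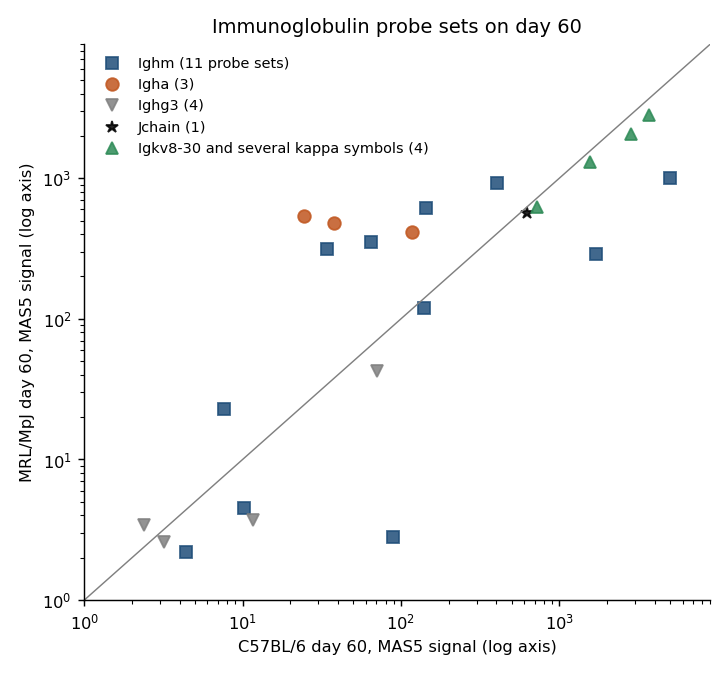
MAS5 signal of immunoglobulin probe sets in the MRL/MpJ day 60 array against the C57BL/6 day 60 array (log axes); each point is 1 probe set and the line marks equal signals. The Igha points and 4 of the brighter Ighm points lie well above the line and 2 bright Ighm points well below it. Jchain, Igkv8-30 and the 3 several-symbol kappa sets that include the constant region, the only kappa sets plotted, lie just below it.

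Other single-symbol immunoglobulin probe sets were mostly dim: of 28, 19 lay below 121 in every array and 7 of these below 28.6. The brightest beside Igha was 1452557_a_at, annotated to the kappa locus as Igk, with 124.8, 195.8, 253.1 and 196.2 in C57BL/6 and 69.9, 216.1, 119.5 and 202.4 in MRL/MpJ. Of its 6 ligated values, those other than MRL/MpJ day 30 lay above both untreated ones. Of the Igkv9-120 segment, 1460423_x_at had its highest value, 167.7, in C57BL/6 day 60, while 1452536_s_at lay between 98.9 and 195.8 and was highest in MRL/MpJ day 3. Igkv19-93 had 92.5 and 23.6 on day 60 on 1427855_at, from 79.5 and 133.7 untreated. Igkv14-111 had 138.7 and 76.7 on day 60 on 1451951_at, 2.57-fold and 2.97-fold above untreated in C57BL/6 and MRL/MpJ. Igkv6-14 was highest in C57BL/6 day 30, at 160.4 on 1427860_at, with 89.3 and 27.6 on day 60. The dim Igk probe set 1425738_at was highest in the 2 day 60 arrays, at 74.8 and 38.6. The day 60 pattern was thus seen on some of these kappa probe sets and not on others.

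The fitted strain difference was smaller than the day 60 difference for each antibody gene. In the fit over all 4 time points MRL/MpJ stood below C57BL/6 by log2 values of -0.45 for Jchain (SE 0.21), -1.13 for Ighm (SE 0.38), -0.41 for Igkv8-30 (SE 0.22) and -0.52 for Iglv1 (SE 0.27). For Cd79a it was -0.26 (SE 0.26) and for Blk 0.01 (SE 0.20). In the 3 ligated pairs C57BL/6 had the higher signal for all 4 antibody genes each time, as had 14.7% of all genes. In the untreated pair it was higher for Jchain only. On day 60 MRL/MpJ was 2-fold or more below C57BL/6 for Ighm and Iglv1, as for 1.72% of all genes. For Ighm these values, the fitted one included, come from its brightest probe set and did not hold for all of its probe sets. Of the 8 Ighm probe sets that reached 121 in at least 1 array, 4 stood 2.21-fold to 5.5-fold higher in MRL/MpJ on day 60. The rest of the 8 were higher in C57BL/6 there. Limma called 0.22% of genes for strain, none of them one of the 6.

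Other B cell genes were read from lists drawn up with earlier results of these data known. Of 17 B cell receptor and surface genes, 13 were measured and 6 passed the filter. On day 60 their median log2 difference was -0.22, 2 lay above 0 (3480 of all 8195 genes did) and 0 passed in limma in either direction. The 4 with the largest differences were Cd37, a tetraspanin gene, at -0.61 (SE 0.40), Cd72, a B cell co-receptor gene, at 0.50 (SE 0.44), Cd83, an activation marker gene, at -0.44 (SE 0.38) and Cd180, a Toll-like receptor relative, at -0.40 (SE 0.25). Ms4a1, the CD20 gene, had 137.1 and 80.0 in untreated C57BL/6 and MRL/MpJ and 122.3 and 85.4 on day 60. Cd22, an inhibitory receptor, had 153.8 and 124.3, then 153.6 and 150.7. Cd79b, the partner of CD79A, did not pass the filter; it had 42.3 and 15.4 untreated and 110.6 and 52.3 on day 60, with its highest value in C57BL/6 day 60.
Of 22 genes for B cell signalling and transcription, 18 were measured and 8 passed the filter, with a median of 0.02 on day 60 and 0 past the threshold in limma. Bcl6, a factor of germinal centre B cells that other cells express too, stood at 0.60 (SE 0.32). Syk, the kinase downstream of the receptor, stood at 0.43 (SE 0.43) and Plcg2, a phospholipase gene, at 0.33 (SE 0.23), while Pou2f2, the OCT-2 factor gene, stood at -0.27 (SE 0.30). Pax5, which keeps B cell identity, lay between 4.5 and 24.8 in all arrays. Of the 14 genes of both lists that passed, 8 were highest in C57BL/6 day 30, as were Cd79a and Blk and 27.3% of all genes kept.

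Genes of the plasma cell and of antibody export had smaller day 60 differences than the antibody genes. Of 20 listed, 19 were measured and 14 passed the filter. Their median log2 on day 60 was 0.17, with 11 above 0 (3480 of all 8195 genes) and 0 past the threshold in limma. Txndc5, a disulfide isomerase gene, stood at 0.69 (SE 0.26), Edem1, a gene for clearing misfolded proteins, at 0.66 (SE 0.49) and Xbp1, the factor that expands the secretory pathway, at 0.15 (SE 0.23). Most of these genes serve secretion in many cell types. Prdm1, the plasma cell factor BLIMP-1, stood at -0.45 (SE 0.28) and had 168.9 and 172.4 in untreated hearts and 127.9 and 107.1 on day 60. Sdc1, syndecan-1, was higher on day 3, with 81.6 and 118.2 untreated, 236.7 and 298.5 on day 3 and 141.1 and 120.7 on day 60. Tnfrsf17, the plasma cell survival receptor BCMA, stayed at or below 55.3.

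Fc receptors and antibody transporters had a median of 0.41 on day 60 over 8 genes that passed the filter. Of these, 5 lay above 0 (3480 of all 8195 genes) and 0 were past the threshold in limma. Fcamr, the Fc receptor gene for IgA and IgM, had the largest difference, -0.84 (SE 0.32), with 110.5 and 131.9 untreated and 46.0 and 65.0 on day 60. Fcgr3, an activating IgG receptor, stood at 0.71 (SE 0.42), Fcer1g, the shared signalling chain, at 0.66 (SE 0.34) and Fcgrt, which recycles IgG, at 0.62 (SE 0.24). Fcgrt signals were 617.5 and 855.5 untreated and 1074.8 and 1186.7 on day 60. Factors that attract or keep B cells had a median of 0.47 over 5 genes, with 0 past the threshold; Cxcl13, the B cell chemokine, had 266.7 and 240.2 untreated and 233.9 and 552.0 on day 60. Lta, the lymphotoxin alpha gene, stood at 0.56 (SE 0.47) and Tgfb1 at -0.44 (SE 0.29). Tnfsf13b, the survival factor BAFF, had 86.3 and 50.1 untreated, 167.0 and 174.3 on day 30 and 112.0 and 123.5 on day 60.

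**Figure D4:**
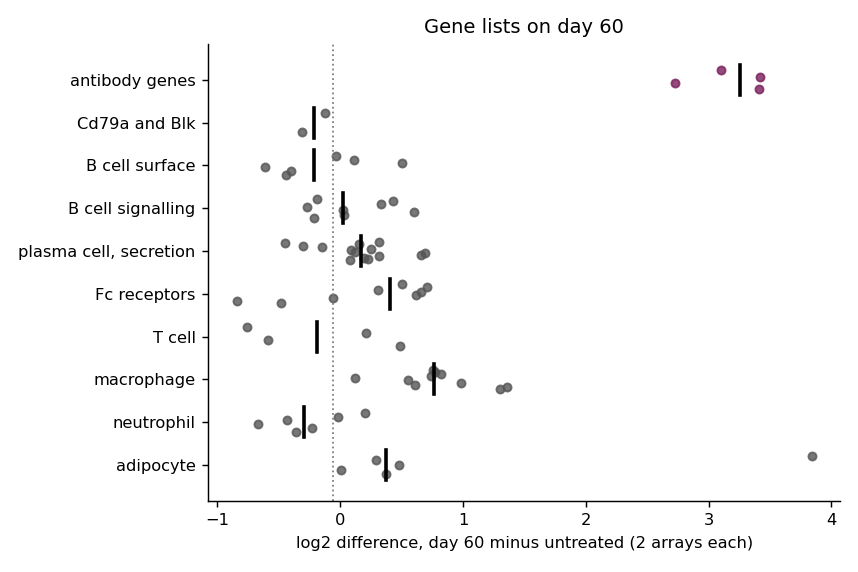
Fitted log2 difference between day 60 and untreated for genes that passed the filter (points) with each list's median (bars); the dotted line is the median of all genes, -0.06. The antibody genes lie at 2.73 to 3.42, and 1 adipocyte gene, Adipoq, lies at 3.84.

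Markers of other cells were read in the same arrays. Macrophage genes stood above untreated on day 60 in 10 of 10 genes that passed the filter, with a median of 0.77. Of all 8195 genes, 3480 stood above untreated there. The summed signal of the 12 macrophage genes was 7053 and 4707 untreated, 10375 and 12633 on day 3 and 9430 and 11084 on day 60. It was highest on day 3, when Jchain stood at 149.7 and 100.1. For T cells the median of 4 genes was -0.19, and for neutrophils that of 6 genes was -0.29. Adipoq, the adiponectin gene of fat cells, had 10.5, 63.5, 49.2 and 347.4 in C57BL/6 and 18.3, 63.6, 361.3 and 972.5 in MRL/MpJ, a log2 of 3.84 on day 60 (SE 0.52, adjusted p = 0.0614 in limma, not passed). Of the 10 adipocyte genes listed, 8 were measured and 5 passed the filter, all above 0 on day 60 with a median of 0.37; Lep lay at or below 70.2 and Pparg at or below 27.6. The list's summed signal was 11700 and 11265 untreated and 12889 and 14203 on day 60. Over the 8 arrays Adipoq correlated with Igkv8-30 at r = 0.80 and with Jchain at 0.71, as a description. The part of fat cells in the antibody signal was not tested.

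The antibody genes were alike among themselves over the 8 arrays, with r between 0.89 and 0.98 for the 6 pairs of Jchain, Ighm, Iglv1 and Igkv8-30. With Cd79a and Blk their r lay between -0.43 and 0.22. The genes were chosen by their signals in these 8 arrays, so these r values follow in part from that choice. Igha, outside the choice, had r = 0.33 with Ighm and 0.66 with Igkv8-30, the lowest and highest of its r with the antibody genes. Among 3728 genes outside the immunoglobulin loci with a log2 range of at least 1, those most like Jchain were Zeb2, a zinc-finger repressor gene (r = 0.936), Itprid2 (0.924), Zfp36l2, an RNA-binding protein gene (0.924), Scd1, a fatty acid desaturase gene (0.917), and Aldh1a1, a retinaldehyde dehydrogenase gene (0.916). Each had its 2 highest values on day 60, with 1708.0 and 2178.4 for Scd1 against 311.7 and 335.1 untreated. Those most like Cd79a were Ccl17, a chemokine gene (r = 0.976), Dus3l (0.967), Rcl1 (0.953), Pomc, the pro-opiomelanocortin gene (0.945), and Mef2b (0.942). Each of these was highest in C57BL/6 day 30, the array that stood apart. These are the top of a ranking over 8 arrays and carry no test.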

How the data were processed

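Total RNA was labelled as biotinylated cRNA and read on Affymetrix arrays, per the labels' protocols. The authors deposited 1 linear signal intensity per probe set; the submitters' processing notes name MAS5, whose version and scaling target are not given in the sources used here. Symbols came from the platform's annotation: 20380 probe sets carry 1 symbol, 691 several and 1555 none. Each gene took its brightest single-symbol probe set by mean log2. Before log2, 28.6 was added (the 20th percentile of the values); genes at 121 (the median) or more in at least 2 of 8 arrays were kept, 8195 in all. Tests used limma 3.58.1 in R 4.3.3, one additive model of strain and time point over 8 arrays (3 residual degrees of freedom), Benjamini-Hochberg over all genes kept, call at adjusted p under 0.05. The p-values rest on the residual of this model, moderated by limma, and not on a spread between animals. With 1 array per strain and time point, that residual is the departure of the strains' time courses from each other. A true strain difference in the course is therefore counted as error. The procedure was tested on simulated data. Members and lists were chosen with earlier results of these data known. Some dimmer and several-symbol immunoglobulin probe sets were named after their values were seen. Named genes are the 6 members with their probe sets (the 3 dim ones of Ighm by range only), the brightest other immunoglobulin probe sets, up to 4 of each list by size of difference, and the 5 nearest genes to Jchain and Cd79a. The genes Ms4a1, Cd22, Cd79b, Pax5, Xbp1, Sdc1, Tnfrsf17, Cd3d, Cd4, Cd2, Lep and Pparg were added as defining genes, after their values were seen. Alternatives were other offsets, filters and scalings, single probe sets, an intensity trend and leaving out each array. Precision is limited by 1 array per group.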

Additional observations from a re-analysis of the deposited data

Results flagged for a closer look

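Of the 13 several-symbol immunoglobulin probe sets, which take no part in the gene comparisons, 3 with the kappa constant region among their symbols were flagged. Their signal on day 60 lay above that in untreated hearts in both strains. The mean log2 difference was 4.20 for 1427455_x_at, 3.56 for 1427660_x_at and 4.32 for 1452417_x_at. In 3 results the strains moved in opposite directions from their untreated arrays, 1 array against 1, and the difference was not tested. For Cd79a on day 30 the change in MRL/MpJ minus that in C57BL/6 was a log2 of -1.30. For the Ighm probe set 1452535_at on day 30 it was -1.52, with 241.8 in C57BL/6 and 70.9 in MRL/MpJ. For the Igkv19-93 probe set 1427855_at on day 60 it was -1.80. Both day 30 results rest on the single C57BL/6 array of that day.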

How the results depend on the processing

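The number of genes called in limma depended on the processing. With the larger offset it was 30 for strain, 10 for day 3, 8 for day 30 and 27 for day 60, against 18, 0, 1 and 3. With the filter on mean signal it was 28, 14, 6 and 24, with an intensity trend 43, 26, 24 and 75. With no filter it was 8 for strain and 0 for days 30 and 60; with median scaling 11 for strain, 0 for day 30 and 9 for day 60; with each probe set on its own 32 for strain and 1 for day 3. With 1 array left out it ranged over 7 to 14 for strain, 0 to 186 for day 30 (186 without the MRL/MpJ day 30 array) and 0 to 30 for day 60 (30 when a day 3 array was dropped, 12 for a day 30 array, 0 for an untreated or day 60 array), and stayed 0 for day 3. The 2 arrays of a time point gave equal counts for strain when dropped. The day 60 differences of the antibody genes kept their direction in all 16 alternatives, 15 for Iglv1, which the filter on mean signal removed. Only the offsets, the scalings and leaving out an untreated or day 60 array could change these differences. In the other alternatives the difference was fixed in advance, so they are no check on it. The smaller and larger offsets gave 3.43 and 2.40 for Jchain, 3.46 and 1.73 for Iglv1 and 3.80 and 2.63 for Igkv8-30. With 1 array left out the ranges were 2.88 to 3.31 for Jchain, 2.60 to 4.23 for Ighm, 2.11 to 3.34 for Iglv1, 3.00 to 3.82 for Igkv8-30, -0.44 to 0.20 for Cd79a and -0.55 to -0.06 for Blk. Cd79a on day 30 turned to -0.02 without the C57BL/6 day 30 array and was 1.08 without the MRL/MpJ one. The filters, single probe sets and the intensity trend cannot change a gene's difference. They are counted among the 235 values for the 6 genes over all 8 arrays, of which 222 moved by less than the residual SD. The cause of these shifts was not tested. The additive model already compares time points within strain and strains within time point; the labels give no replicate numbers for a further block.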
